A study of Mus musculus with 4 samples.

Results

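The cadherin and protocadherin genes of mouse spiral ganglion neurons were followed across 5 annotated neuron populations. Every gene symbol that begins with Cdh and a digit, or with Pcdh, was taken from the count tables, which gave 88 members among 18143 genes, 20 of them cadherins and 68 protocadherins. The neurons came from 4 wild-type male mice of the strain CBA/CaJ aged 9 weeks, with no treatment or transgene named in the labels, and each mouse was captured as its own library. The populations are those of the authors' deposited cell annotation: the type I neuron in the 3 subtypes IA, IB and IC, the type II neuron, and cells called putative spiral ganglion neurons. Values are unique molecular identifiers (UMIs, captured transcripts) summed per mouse and population and given as a rate scaled to the sum's total (CPM), with the mouse as the replicate.

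Cadherins are calcium-dependent adhesion molecules that span the membrane. Classical cadherins bind a like cadherin on the neighbouring cell with the outer end and catenins with the inner end, which ties the contact to actin. Protocadherins lack the catenin-binding tail. Those of the delta groups act mostly in axon growth and synapse choice, some of them through the actin-nucleating WAVE complex, while the alpha, beta and gamma protocadherins are encoded in gene clusters and are used in combinations that let a neurite recognize its own cell. In the cochlea, type I neurons contact inner hair cells and carry the main auditory signal, and the sparse type II neurons contact outer hair cells. Cdh23 and Pcdh15 are best known there as the strands of the tip link that gates the hair cell's transduction channels.

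The tables held 6713 cells, of which 2384 carried the label IA, 1625 the label IB and 2104 the label IC. Type II had 95 cells and the putative population 505, and a mouse gave 15151343 to 27309045 UMIs. Type II rested on 15 to 34 cells per mouse and 1288798 UMIs in all, so its values carry the widest error. The median putative cell had 5647 ± 2340 UMIs (mean ± SD of the mice's medians), against 13166 ± 3409 in type IA. 26 cell barcodes occurred in more than 1 library. Marker sums matched the labels of the type I subtypes (the type IA list stood at 10163 ± 856 CPM in type IA and at 736 ± 117 in type IC) and of type II, where Prph, Th and Gata3 together had 910 ± 410 CPM while type I had means of 35.9 to 50.1. However, 37 of the 95 type II cells had no UMI of Prph, the intermediate filament gene that marks type II neurons. A satellite glia list of 6 genes summed to 8619 ± 2064 CPM in type II and 8141 ± 429 in putative cells, against 1302 to 1390 in type I. The population labels belong to the same cells and were not given by an independent measurement named in the labels, so the tests below describe how steady a difference was over 4 mice and are no independent evidence that the populations exist.

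Of the 88 members, 83 had at least 1 UMI in every mouse. In 45 the counts were high enough for the test, and the other 43 had 3 to 127 UMIs over all cells. Most molecules came from few members: Pcdh7 had 12473 UMIs, Cdh2 10957, Pcdh20 3152, Cdh9 2799, Cdh1 2348 and Pcdh9 2001, as captured transcripts not scaled to length. By class, 4 of the 5 classical type I cadherins (the Cdh1 and Cdh2 kind), 8 of the 12 classical type II cadherins (a sequence class, unrelated to the neuron type), 1 of 3 other cadherins, 4 of 4 delta-1 and 3 of 5 delta-2 protocadherins and 1 of 3 further single protocadherins were tested. Of the clustered genes, 1 of 13 alpha, 19 of 21 beta and 4 of 22 gamma members were tested. Of the untested, Pcdh12 had 3 UMIs, Pcdhgb8 had 6 and Pcdh8 had 8. Pcdh15, the tip link partner of Cdh23, had 28.

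**Figure D1:**
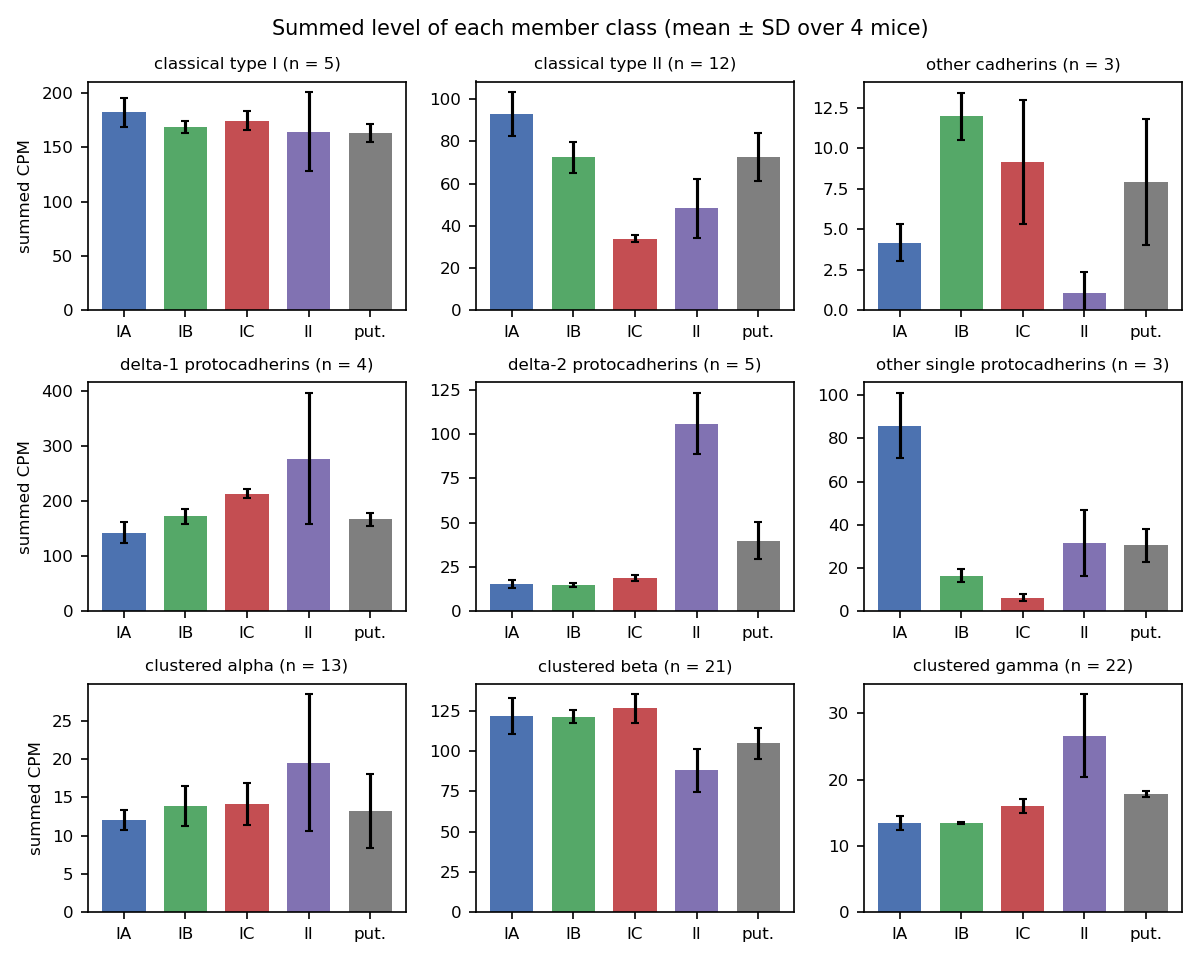
Summed CPM of each member class in the 5 populations (bars, mean over 4 mice; error bars, SD; n is the number of members in the class). The classical type II cadherins and the single protocadherin class that holds Pcdh20 step down from IA to IC, while the delta-2 sum stands at 106 ± 17.1 CPM in type II and at 14.9 to 18.7 in the subtypes of type I.

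The class sums followed different courses over the populations. Classical type I cadherins summed to 182 ± 13.5 CPM in type IA, 169 ± 5.59 in IB and 175 ± 8.71 in IC. Classical type II cadherins stood at 92.9 ± 10.3 in IA, 72.4 ± 7.34 in IB and 33.9 ± 1.68 in IC, a sum carried mainly by Cdh9 and Cdh22. Delta-1 protocadherins ran the other way, from 143 ± 18.9 in IA to 173 ± 14.1 in IB and 214 ± 8.16 in IC. The beta cluster was level among type I, at 122 ± 11.1, 121 ± 4.07 and 126 ± 8.72 CPM. These sums were not tested.

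Among the 3 type I subtypes, 11 of the 45 tested members (24.4%) differed at an adjusted p under 0.05, against 31.4% of all 13005 genes tested. The share of members that split type I was thus no higher than that of genes at large. The 11 were Pcdh20, Cdh9, Cdh22, Pcdh11x and Cdh2, highest in type IA, Cdh23, highest in type IB, and Cdh4, Pcdh7, Pcdh9, Pcdh19 and Pcdhga7, highest in type IC. Of the 21 tested members outside the clusters 10 were called, and of the 24 clustered members 1.

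Pcdh20, a non-clustered protocadherin outside the delta groups, had the largest difference within type I among the 45 tested members. In mice 1 to 4 its level was 86.2, 77.3, 73.0 and 106 CPM in type IA, 18.5, 14.2, 13.6 and 18.8 in type IB, and 6.01, 7.49, 3.98 and 5.41 in type IC. The 3 subtypes did not overlap, and each mouse gave the same order. The log2 difference was 3.86 ± 0.10 (SE) between IA and IC (adjusted p 2.1e-34, higher in 4 of 4 mice), 2.40 ± 0.09 between IA and IB (adjusted p 2.3e-27) and 1.47 ± 0.15 between IB and IC (adjusted p 1e-10). After each cell was thinned to 4215 UMIs, 30.2% ± 5.96 of type IA cells held a Pcdh20 UMI, against 6.53% ± 1.16 of IB and 2.87% ± 1.02 of IC cells, and without thinning 59.1% of IA and 7.42% of IC cells did. All 5 populations carry neuron labels, so no cell type that should lack Pcdh20 was at hand to gauge its free RNA.

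Cdh9, a classical type II cadherin known for its part in forming specific synapses in the hippocampus, followed the same order with a smaller first step. Its level in mice 1 to 4 was 55.1, 44.6, 65.6 and 66.8 CPM in type IA, 33.2, 30.8, 42.8 and 41.8 in IB, and 7.55, 5.59, 7.70 and 7.09 in IC. Type IA was higher than IB in every mouse, and type IC lay far below both in all 4. In the fit the log2 difference was 3.06 ± 0.10 for IA against IC (adjusted p 1.5e-30), 0.64 ± 0.08 for IA against IB (adjusted p 2.5e-09) and 2.41 ± 0.11 for IB against IC (adjusted p 4.2e-23), each in 4 of 4 mice. So Pcdh20 differed most between IA and IB, and Cdh9 most between IB and IC.

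The 250 bases before the RefSeq start of Pcdh20 and Cdh9, the tested members with the largest fold between type I subtypes, are shown with those of Pcdh17, the tested member with the largest fold between type II and type I, since the counts alone do not show how unlike these start regions are. They are RefSeq sequences of the build GRCm38.p6, read 5′ to 3′ on the gene's strand, at chr14:88471397-88471646 (Pcdh20, minus strand), chr15:16728665-16728914 (Cdh9, plus strand) and chr14:84443313-84443562 (Pcdh17, plus strand), and capitals mark the E-box letters CANNTG.
Pcdh20: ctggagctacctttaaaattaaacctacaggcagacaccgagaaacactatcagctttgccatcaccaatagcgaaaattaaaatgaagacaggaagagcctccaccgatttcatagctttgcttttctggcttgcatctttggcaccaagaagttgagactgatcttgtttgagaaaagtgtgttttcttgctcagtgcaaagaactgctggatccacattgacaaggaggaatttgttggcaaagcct
Cdh9: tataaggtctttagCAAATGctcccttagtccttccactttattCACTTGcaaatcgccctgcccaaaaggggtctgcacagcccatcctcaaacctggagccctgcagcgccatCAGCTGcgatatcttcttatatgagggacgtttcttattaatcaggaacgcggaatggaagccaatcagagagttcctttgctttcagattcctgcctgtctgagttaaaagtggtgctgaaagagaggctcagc
Pcdh17: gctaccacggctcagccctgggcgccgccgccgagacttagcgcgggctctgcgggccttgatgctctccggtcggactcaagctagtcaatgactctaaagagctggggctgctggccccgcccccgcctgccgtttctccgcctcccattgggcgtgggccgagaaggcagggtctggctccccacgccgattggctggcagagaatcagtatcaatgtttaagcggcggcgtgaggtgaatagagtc
The Pcdh17 window had 21 CpG dinucleotides and 64.8% G and C, the Cdh9 window 6 and 48.0%, and the Pcdh20 window 3 and 42.4%, where the median over 32851 promoters of the same length was 6 CpG and 52.4%. Cdh9 held 3 E-boxes and the other windows none, and 66.2% of all promoters held at least 1. Neither GATAA (22.6% of promoters) nor TGTGGT (14.0%) occurred in any of them on either strand, and motifs were searched on both strands. A match or its absence describes these letters only. For Cdh9 the GENCODE M21 gene start, at position 16728756, lies inside the window, so part of it, with the third E-box, follows that start. Of the 88 members, 21 had an entry in the promoter table. In the GENCODE M21 annotation of the same build, Pcdh20 lies at chr14:88464743-88471396, between Pcdh17 (chr14:84443563-84539002) and Pcdh9 (chr14:93013410-93890679), with 3.93 and 4.54 Mb between them. Pcdh20 had its highest mean in type IA, and Pcdh17 and Pcdh9 had theirs in type II.

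Cdh22, another classical type II cadherin, was alike in IA and IB and low in IC. Mice 1 to 4 gave 13.0, 12.9, 12.3 and 12.9 CPM in IA, 13.4, 8.81, 12.3 and 15.1 in IB, and 4.20, 3.24, 1.86 and 1.68 in IC. Type IC lay below both other subtypes in all 4 mice, and IA and IB overlapped. By edgeR the log2 difference was 2.20 ± 0.18 for IA against IC (adjusted p 7.1e-15) and 2.10 ± 0.19 for IB against IC (adjusted p 1.5e-12). For IA against IB it was 0.10 ± 0.14 (adjusted p 0.72), within its error.

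Pcdh11x, an X-linked delta-1 protocadherin, was lowest in type IC. It stood at 7.09, 4.53, 9.05 and 8.54 CPM in IA, 4.72, 6.03, 5.97 and 6.26 in IB, and 2.24, 4.36, 3.48 and 2.98 in IC. Type IC was below IA and IB in every mouse, although the highest IC value came close to the lowest IA value. The log2 difference for IA against IC was 1.08 ± 0.20 (adjusted p 1.5e-05). For IB against IC it was 0.78 ± 0.22 (adjusted p 0.011), and that call was lost without mouse 1, 3 or 4.

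**Figure D2:**
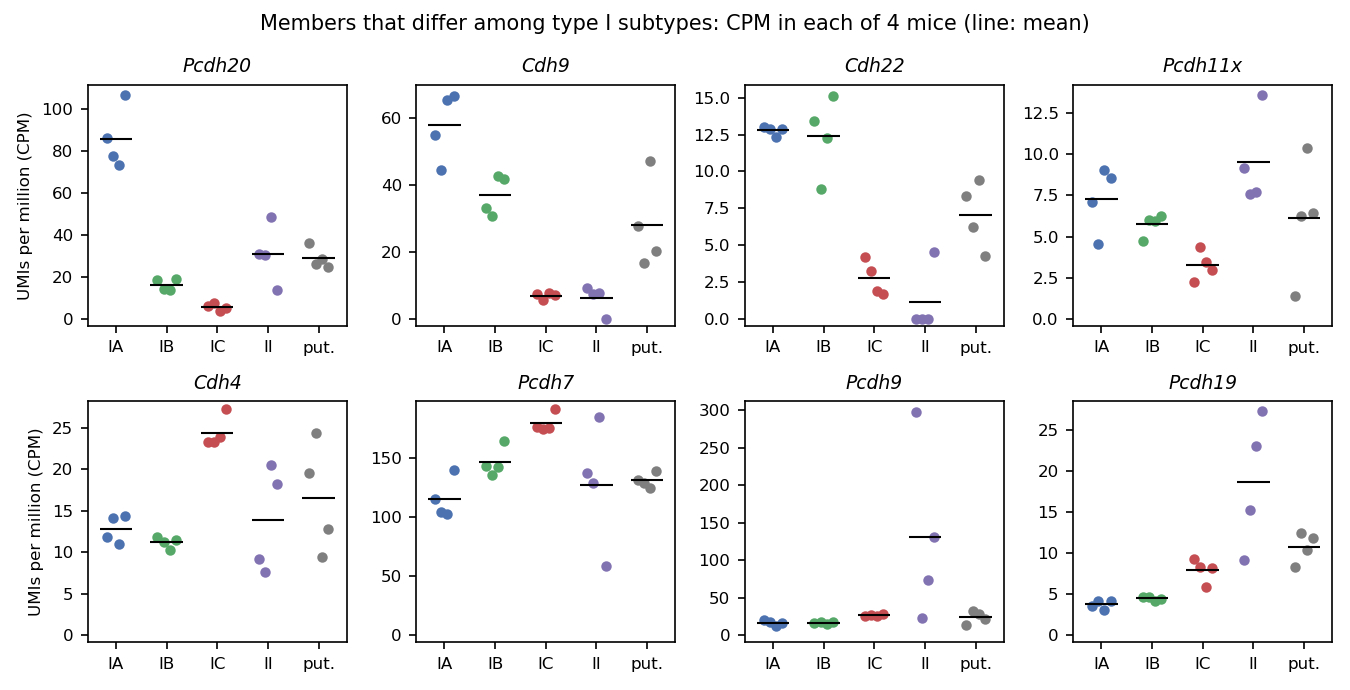
CPM of 8 members in each of the 4 mice (points, left to right mouse 1 to 4) in the 5 populations (put., putative); lines are means, and each panel has its own linear scale. Pcdh20 and Cdh9 step down from IA to IC, Cdh4 and Pcdh7 are highest in IC among type I, and Pcdh9 reaches 298 CPM in type II of mouse 1.

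Cdh23 had its peak in type IB and its low in type IA. The 4 mice gave 12.6, 11.4, 9.45 and 12.5 CPM in IB, 3.76, 5.02, 2.51 and 3.54 in IA, and 13.6, 7.60, 5.47 and 6.90 in IC. Type IA was below IB and IC in every mouse, while IB was above IC in 3 of 4. The log2 difference was -1.57 ± 0.18 for IA against IB (adjusted p 1.3e-09) and -1.10 ± 0.18 for IA against IC (adjusted p 2.8e-06). For IB against IC it was 0.47 ± 0.15 (adjusted p 0.036), a call lost without mouse 2, 3 or 4, with DESeq2 and without the mouse as a block. Hair cell markers (6 genes summed) were at 2.20 ± 1.36 CPM in IA, 2.58 ± 2.02 in IB and 3.06 ± 1.87 in IC, with a range over mice that overlapped that of Cdh23 in IA and IC. In type II they were at 8.33 ± 4.99 CPM, with no UMI of 3 of the 6 genes, and Cdh23 had 1 UMI. Both values rest on few molecules there. The part of hair cell markers in the Cdh23 level was not tested. Pcdh15 had 4, 4 and 14 UMIs in IA, IB and IC.

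Cdh4, or R-cadherin, a classical type I cadherin, was about 2 times as high in type IC as in either other subtype. It stood at 23.2, 23.2, 23.9 and 27.2 CPM in IC, 11.9, 14.1, 11.1 and 14.4 in IA, and 11.9, 11.3, 10.3 and 11.5 in IB. Every IC value lay above every IA and IB value. In the fit the log2 difference was -1.10 ± 0.12 for IB against IC (adjusted p 1.3e-10) and -0.90 ± 0.10 for IA against IC (adjusted p 5e-10), and 0.20 ± 0.13 for IA against IB (adjusted p 0.35), which did not pass.

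The delta protocadherins Pcdh7, Pcdh9 and Pcdh19 were highest in type IC too. Pcdh7, at 103 to 140 CPM in IA, 136 to 165 in IB and 174 to 191 in IC, rose in 2 small steps. In mice 1 to 4 the levels were 115, 104, 103 and 140 in IA, 143, 136, 143 and 165 in IB, and 176, 174, 175 and 191 in IC, the same order in each mouse. By edgeR the log2 difference was -0.63 ± 0.06 for IA against IC (adjusted p 1.2e-12), -0.35 ± 0.06 for IA against IB (adjusted p 3.4e-05) and -0.28 ± 0.06 for IB against IC (adjusted p 0.00045). Both smaller steps missed the threshold without the mouse as a block.

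Pcdh19, an X-linked delta-2 protocadherin mutated in a form of epilepsy, was at 9.23, 8.27, 5.84 and 8.20 CPM in IC, 3.62, 4.14, 3.14 and 4.16 in IA, and 4.72, 4.64, 4.14 and 4.44 in IB. Every IC value was above every value of the other subtypes. The log2 difference was -1.04 ± 0.17 for IA against IC (adjusted p 1.8e-06) and -0.79 ± 0.18 for IB against IC (adjusted p 0.00098). Thinned to 1 depth, the IA against IC difference was -0.68 (adjusted p 0.092).

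Pcdh9 was at 26.4, 27.7, 26.1 and 28.0 CPM in IC, 20.7, 18.3, 12.8 and 16.4 in IA, and 16.0, 17.3, 14.8 and 18.3 in IB. Type IC did not overlap the others, but the test called it in fewer fits: log2 -0.70 ± 0.16 for IB against IC (adjusted p 0.0012) became adjusted p 0.41 with DESeq2 and 0.14 without the mouse as a block. Pcdhga7, the only clustered gene called in type I, had 17, 23 and 46 UMIs in IA, IB and IC, or 0.581 ± 0.063, 1.05 ± 0.32 and 1.59 ± 0.61 CPM. Its log2 difference of -1.38 ± 0.39 for IA against IC (adjusted p 0.0051) rests on few molecules, and its call over the 3 subtypes was lost without any 1 of the 4 mice and with DESeq2. Its IA and IB sums lay under the level of about 2 CPM used by the filter on low counts. It was thus kept only through IC, type II or putative sums, and its higher level in IC may be in part built in.

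Cdh2, or N-cadherin, is named although its difference was small: 140 ± 11.7 CPM in IA, 126 ± 6.03 in IB and 119 ± 5.73 in IC, chosen here after its values were seen. The log2 difference for IA against IC was 0.25 ± 0.05 (adjusted p 3.8e-05, 4 of 4 mice). That for IA against IB, 0.15 ± 0.05 (adjusted p 0.037), was lost without any 1 mouse and without the block. Cdh1, or E-cadherin, showed no such step, at 27.0 ± 2.30, 27.5 ± 1.53 and 27.8 ± 4.25 CPM in IA, IB and IC, with a log2 difference of -0.02 ± 0.08 for IA against IB (adjusted p 0.90).

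By pair of subtypes, type IA against IC gave 13 called members, 5 higher in IA and 8 higher in IC, or 28.9% of those tested. Of all genes 32.3% were called, 16.3% higher in IA and 16.0% higher in IC. This pair added to the names above Cdh15 (-0.65 ± 0.24, adjusted p 0.034) and Pcdhac2 (-0.37 ± 0.13, adjusted p 0.029), both higher in IC and both lost with DESeq2. Type IB against IC gave 9 (20.0%, against 11.8% of all genes), 5 of them higher in IB (6.37% of all genes) and 4 higher in IC (5.47%). Type IA against IB gave 5 (11.1%, against 15.6% of all genes), 3 of them higher in IA (7.40% of all genes) and 2 higher in IB (8.19%). Over all 45 members the median log2 difference was -0.13 for IA against IC, where that of all genes was -0.01.

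**Figure D3:**
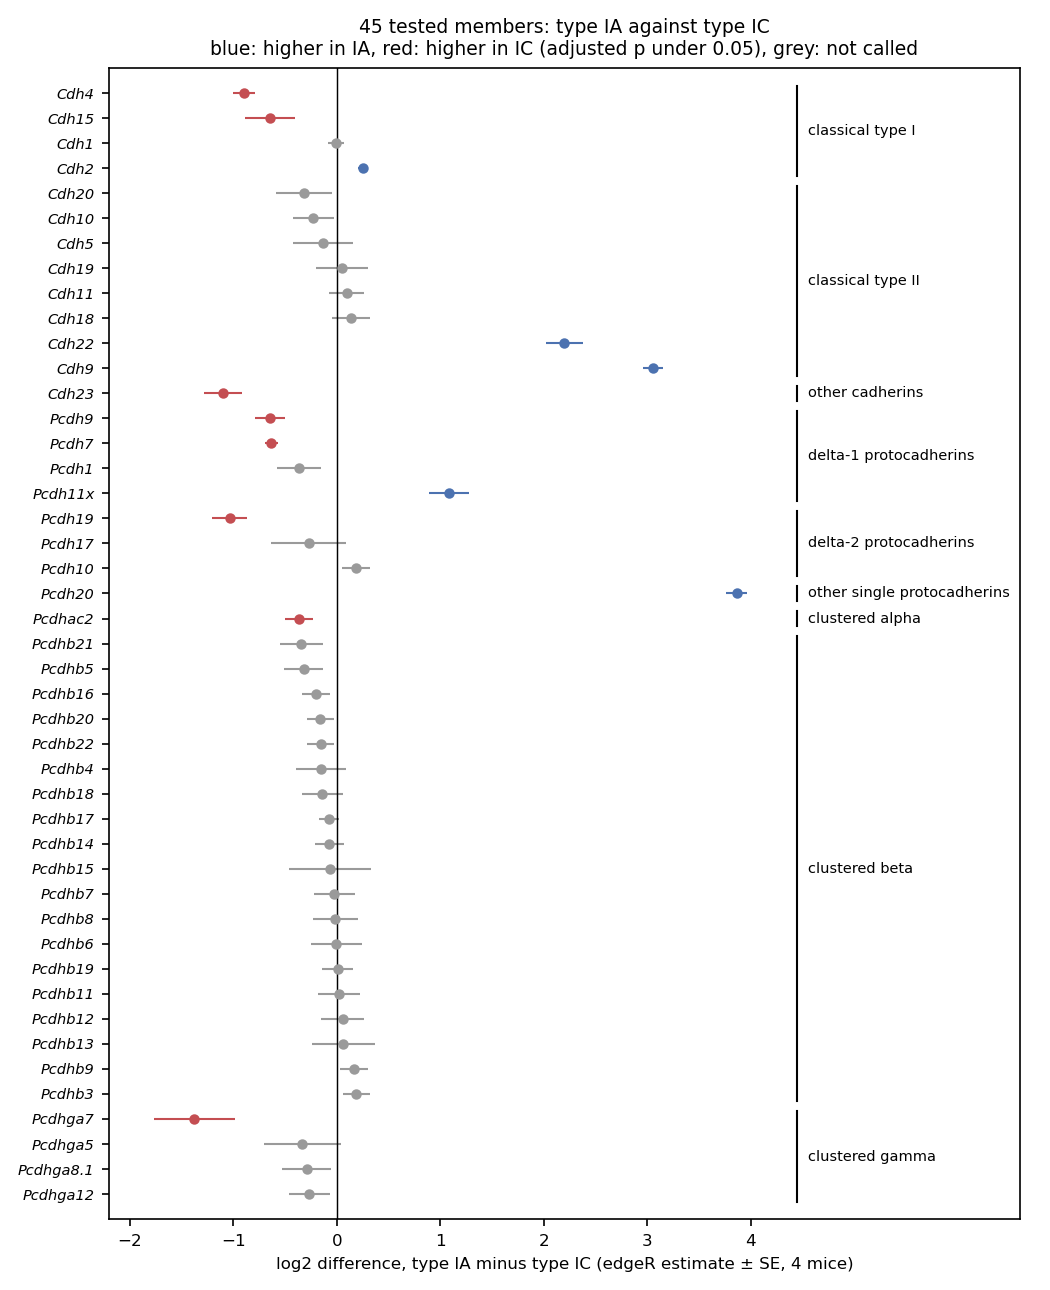
Log2 difference of type IA minus type IC for the 45 tested members (points, edgeR estimate; bars, SE; 4 mice), grouped by class; blue and red points passed an adjusted p of 0.05. Pcdh20 (3.86), Cdh9 (3.06) and Cdh22 (2.20) stand apart to the right, and the beta cluster stays near 0.

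Some members too sparse for the test had most of their UMIs in type IC. Cdh7, a classical type II cadherin, had 42 UMIs in type IC, 2 in IA and 3 in IB, an IC to IA ratio of 21.2 (95% exact interval of the counts 5.52 to 181, counting error only). The mice gave 1.54, 1.56, 1.62 and 0.746 CPM in IC and at most 0.261 in any IA or IB sum. Cdh8, of the same class, had 15 UMIs in IC, 1 in IA and none in IB, and 4 in the far smaller type II sum. Fitted without the filter on low counts, Cdh7 (adjusted p 3.1e-08) and Cdh8 (adjusted p 0.0025) passed in the test over the 3 subtypes. Both were picked for UMIs that lay mostly in IC, so these calls on the same counts are no independent support. The share of all genes that passed in that fit is not given here. Cdh8 was also higher in type II than in type I in that fit (log2 4.79 ± 1.31, adjusted p 0.0025), and its rate per UMI was higher in type II than in IC. It rests on 20 UMIs in all.

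Whether these differences were steps or slopes was described on an axis from the type IA to the type IC profile built without the members, along which the type I cells of each mouse were ranked and cut into 10 bins. Cdh9 was lower in each bin than in the one before, from 96.7 ± 22.3 CPM in bin 1 through 41.2 in bin 5 and 28.2 in bin 7 to 3.9 in bin 10. Pcdh20 was level over the first 4 bins, at 74.3 to 86.6 CPM, where 77.7% to 88.1% of cells were labelled IA, and then dropped from 49.3 in bin 5 to 17.7 in bin 7 and 4.5 in bin 10. Cdh22 kept 9.3 to 16.3 CPM up to bin 7 and stood at 4.1, 2.9 and 3.1 in the last 3 bins, where IC cells prevailed. These 3 of the members highest in IA thus had different shapes: a fall through every bin, a drop at the border of IA and IB, and a drop at that of IB and IC. After bin 7 Cdh9 fell further, to 12.6 CPM in bin 8 and 5.9 in bin 9. From bin 1 to bin 10, Pcdh11x went from 14.0 to 2.4 CPM and Cdh2 from 168 to 110.

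The members of the IC side were also unlike each other. Cdh4 went from 10.2 CPM in bin 3 to 21.1 in bin 8, and Pcdh9 from 11.9 in bin 1 to 26.2 in bin 10. Cdh23 was highest in the middle, at 12.0 CPM in bin 7, between 3.7 in bin 3 and 7.7 in bin 9. Pcdh7 was not ordered along the axis: it had 190 ± 29.4 CPM in bin 1, 106 in bin 4 and 157 to 166 in bins 8 to 10. The cells of bin 1 were shallow, with a median of 5627 ± 1056 UMIs against 12063 to 18204 in the other bins, and the part of depth in their levels was not tested. These bin values are a description, with no test.

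**Figure D4:**
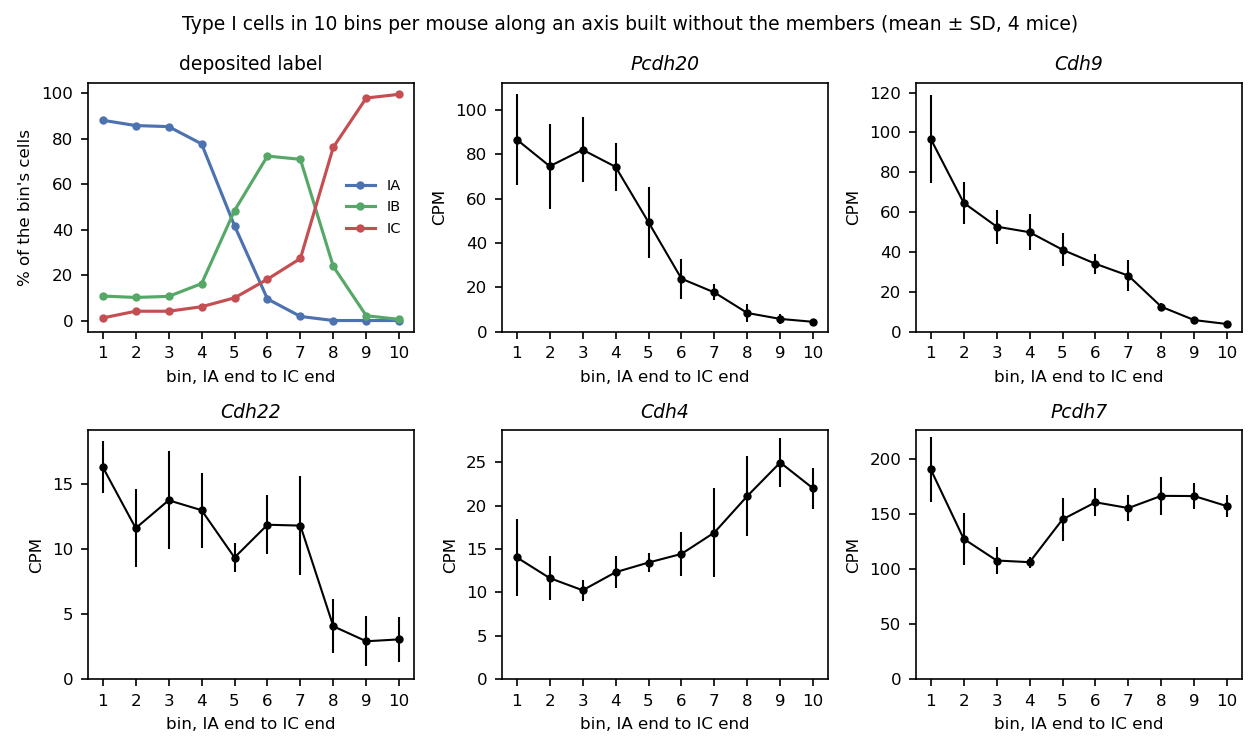
Type I cells of each mouse in 10 bins of equal size along an axis from the IA to the IC profile made without the members (x axis, bin); the first panel gives the share of each deposited label, the others the CPM of a member (mean ± SD over 4 mice). Pcdh20 is level to bin 4 and then drops, Cdh9 is lower in each successive bin, Cdh22 drops after bin 7, and Pcdh7 is highest in bin 1.

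Type II neurons had more Pcdh17 and Pcdh9 and less Cdh9 than type I neurons. Of the 45 tested members 11 (24.4%) differed from the mean of the 3 subtypes, against 23.4% of all genes, 7 of them higher in type II (11.9% of all genes) and 4 lower (11.5%). Pcdh17 had the widest difference of those tested. This delta-2 protocadherin, which recruits the WAVE complex where axons touch, was nearly absent from type I: mice 1 to 4 gave 95.1, 60.8, 43.5 and 45.4 CPM in type II and 0.754 to 1.87 in the type I sums. Fitted over the mice, the log2 difference was 5.68 ± 0.28 (adjusted p 1.6e-22, 4 of 4 mice). In molecules, 87 of 1288798 type II UMIs and 94 of 80967769 type I UMIs were Pcdh17, a ratio of 58.1 (95% exact interval 42.9 to 78.7). Pcdh17 passed the filter on low counts only through its type II and putative sums, so a difference was bound to be found there.

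Pcdh17 UMIs were spread over cells and mice. Of thinned type II cells 18.6% ± 8.37 held one (40.7% ± 22.3 unthinned), against 0.21% to 0.64% of type I cells, and the richest type II cell had 12 of the 87. Pooled over mice, the level was 96.1 CPM in the 37 type II cells without Prph and 34.9 in the 58 with it. With the latter alone the log2 difference was 4.72 ± 0.50 (adjusted p 1.7e-12). Satellite glia markers stood higher in type II as well, and the part of glial RNA was not tested. Without the cells with 3 or more UMIs of the satellite glia gene Fabp7, the log2 difference was 5.77 ± 0.32.

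Pcdh9, of the delta-1 group, was high in type II but very unevenly so: 298, 22.8, 74.3 and 132 CPM in mice 1 to 4, against 12.8 to 28.0 in type I. Mouse 2 lay inside the type I range and the other 3 above it. It differed by a log2 value of 3.03 ± 0.22 (adjusted p 6.5e-16, 4 of 4 mice), and 2.04 ± 0.26 without mouse 1. A single type II cell held 48 of the 224 UMIs. Pooled over mice, cells without Prph had 288 CPM and those with Prph 43.2. With the latter alone the log2 difference was 1.01 ± 0.34 (adjusted p 0.018). Thinned to 1 depth it was 1.91 ± 0.35.

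Pcdh7 showed the same split inside the label, with 214 CPM in type II cells without Prph and 49.8 in those with it. These levels are pooled over mice and have no spread, and a single type II cell held 24 of the 177 UMIs. Over all type II cells it was 137, 129, 184 and 59.1 CPM in mice 1 to 4 and the difference from type I, log2 -0.13 ± 0.14 (adjusted p 0.56), did not pass. Taking only the cells with Prph turned this into a call, whose fitted value is not given here. The pooled level of those cells lay below every type I sum.

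Pcdh19 and Pcdh10, both delta-2, had more UMIs in the cells that do carry Prph, at 26.6 against 8.74 CPM for Pcdh19 and 29.9 against 10.2 for Pcdh10, pooled over mice. Cells with Prph also had more of the satellite glia gene Fabp7, at 1131 CPM against 106. They were shallower too, with 601917 UMIs in 58 cells against 686881 in 37. The part of either in these levels was not tested. Pcdh19 had 9.15, 15.2, 23.1 and 27.3 CPM in type II, and all 4 values but that of mouse 1 lay above the type I maximum of 9.23. The log2 difference was 1.71 ± 0.37 (adjusted p 0.00027). Pcdh10 had 14.6, 45.6, 17.9 and 18.2 CPM there, where type I sums ran from 6.79 to 11.4, with no overlap. Its log2 difference was 1.07 ± 0.34 (adjusted p 0.015), and it was lost without mouse 2 (0.83 ± 0.38, adjusted p 0.13) or mouse 3.

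Pcdh10 and Pcdh19 both had a higher rate in type II cells rich in Fabp7, on few UMIs pooled over mice. In the 38 type II cells with 3 or more Fabp7 UMIs Pcdh10 was at 36.1 CPM (13 UMIs) and Pcdh19 at 30.5 (11 UMIs). In the other 57 they were at 12.9 (12 UMIs) and 11.8 (11 UMIs). Without the cells of 3 or more Fabp7 UMIs the log2 difference was 0.43 ± 0.46 for Pcdh10 (adjusted p 0.62) and 1.13 ± 0.48 for Pcdh19 (adjusted p 0.12).

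Of the members lower in type II, Cdh9 had 9.15, 7.59, 7.68 and 0 CPM in mice 1 to 4, on 9 UMIs in all. This was near the type IC level and below type IA and IB. The log2 difference from the mean of type I was -1.91 ± 0.41 (adjusted p 0.00023). Cdh22 had 1 UMI in all type II cells and Cdh23 also 1, in different mice. Against type I the pooled UMI rate of Cdh22 was 11.5 times lower (95% exact interval 2.06 to 456) and that of Cdh23 9.65 times lower (1.72 to 382). The fitted differences, -3.34 ± 0.99 for Cdh22 (adjusted p 0.0090) and -3.25 ± 1.00 for Cdh23 (adjusted p 0.012), were both lost without mouse 1, and that of Cdh22 without mouse 3.

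Pcdhb22, a beta cluster gene, had 3.66, 0, 2.56 and 0 CPM there, or 3 UMIs, where type I sums ran from 7.57 to 11.6. Fitted over the mice, the log2 difference was -2.11 ± 0.62 (adjusted p 0.0081), lost without mouse 3. Beta genes as a sum were at 88.0 ± 13.1 CPM in type II. Cdh15 (1.82 ± 0.50, 15 UMIs in type II), Pcdhga8.1 (1.87 ± 0.48, 14 UMIs) and Cdh11 (1.30 ± 0.40, 18 UMIs) were called as higher on fewer than 20 molecules. Cdh11 was at 22.2 CPM (8 UMIs) in the type II cells with 3 or more Fabp7 UMIs and at 10.8 (10 UMIs) in the others. Pcdhga8.1 was at 22.2 (8 UMIs) and 6.46 (6 UMIs). These counts are small, and the differences between the 2 sets of cells were not tested. Pcdhga8.1 is the second row of a repeated symbol, whose gene is not identified here. Pcdh20 was at 31.1, 30.4, 48.7 and 13.6 CPM in type II, between the IA and IB levels in 3 mice and inside the IB range in mouse 4.

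**Figure D5:**
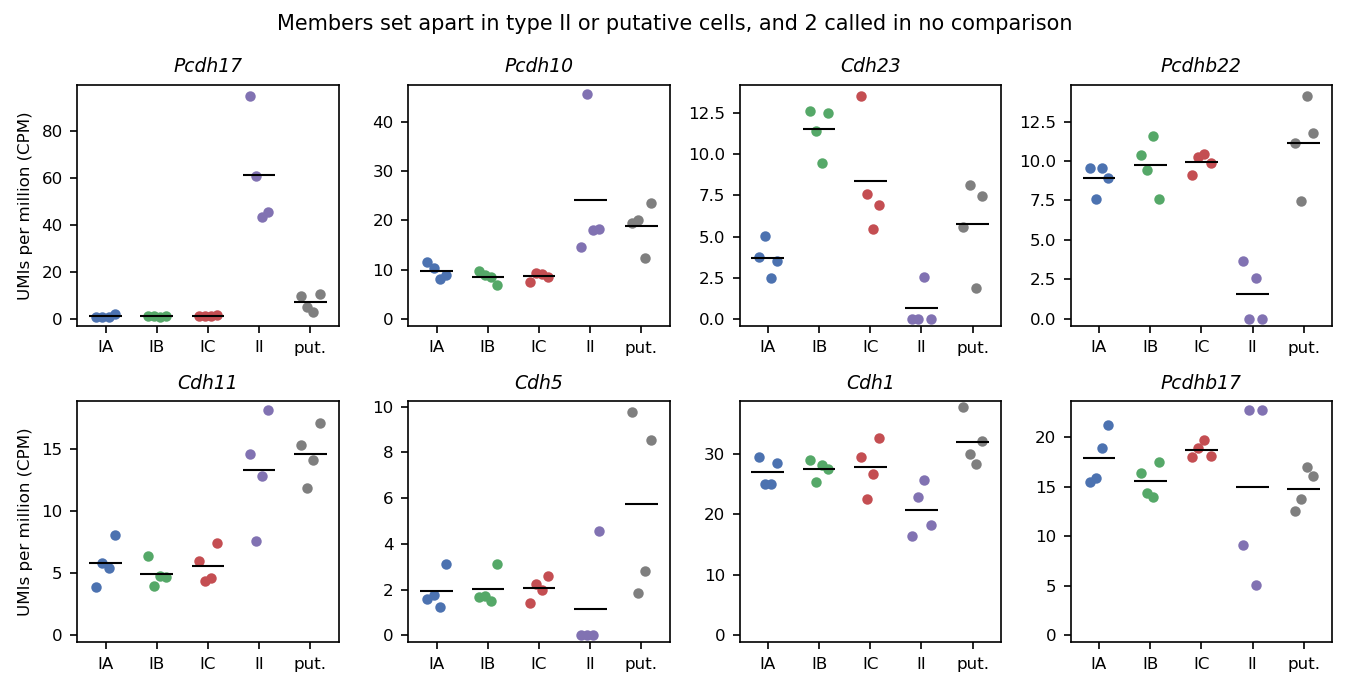
CPM of 8 members in each of the 4 mice (points, left to right mouse 1 to 4) in the 5 populations; lines are means, and each panel has its own linear scale. Pcdh17 is near 1 CPM in type I and 43.5 to 95.1 in type II, and Cdh23 and Pcdhb22 are at or near 0 in type II. Cdh11 has a higher mean in putative cells and in type II than in type I, and Cdh1 and Pcdhb17 were called in no comparison.

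Putative neurons differed from the mean of the other 4 populations in 6 members (13.3%, against 13.7% of all genes), and all 6 were higher. Of all genes 10.2% were higher and 3.50% lower. Cdh11, a classical type II cadherin best known from mesenchyme and bone, was at 15.3, 11.9, 14.1 and 17.1 CPM in putative cells against 3.91 to 8.12 in type I. Every putative value was above every type I value, and the log2 difference was 1.08 ± 0.23 (adjusted p 0.00054). The rate in type II was about as high, with 18 of 1288798 UMIs there and 61 of 4315583 in putative cells. A fibroblast list of 4 genes summed to 368 ± 144 CPM in putative cells and to 102 to 106 in type I, and Cdh11 was at 32.1 CPM in the 96 putative cells with 3 or more UMIs of the satellite glia gene Fabp7 against 12.4 in the others. The part of either in the Cdh11 level was not tested. Thinned to 1 depth, Cdh11 gave 0.85 ± 0.50 (adjusted p 0.46).

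Cdh5, the endothelial VE-cadherin, had 9.76, 1.87, 2.83 and 8.56 CPM in putative cells against 1.26 to 3.13 in type I. Mice 1 and 4 were high and the others inside the type I range. It differed by a log2 value of 1.63 ± 0.47 (adjusted p 0.014), and the call was lost without mouse 1 or mouse 4. Endothelial markers (4 genes summed) ran from 28.3 to 80.3 CPM in putative sums and from 22.7 to 36.8 in type I, and their part in it was not tested.

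Pcdh10 had 19.5, 20.0, 12.3 and 23.5 CPM in putative cells, all above the type I maximum of 11.4 (log2 0.79 ± 0.20, adjusted p 0.0035). The type II sums, at 14.6 to 45.6 CPM, overlapped the putative ones. In the 96 putative cells with 3 or more Fabp7 UMIs it had 47 UMIs, or 126 CPM, and in the other 409 it had 34, or 8.63 CPM. Without such cells the log2 difference turned to -0.18 ± 0.28 (adjusted p 0.79). In the same 96 cells Cdh19, the Schwann cell and glial cadherin, was at 29.4 CPM against 2.54, and Pcdh9 at 85.5.

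The other 3 calls in putative cells were Pcdh17, Pcdh19 and Cdh9. Pcdh17 had 9.76, 4.99, 2.83 and 10.7 CPM, above every type I sum, though far below type II (log2 1.05 ± 0.34, adjusted p 0.027). It passed the filter on low counts only through its type II and putative sums, so its place above the type I sums was in part built in. Pcdh19 had 8.36, 12.5, 10.4 and 11.8 (0.68 ± 0.24, adjusted p 0.048), below type II in every mouse. Cdh9 had 27.9, 16.8, 47.1 and 20.3 (0.64 ± 0.19, adjusted p 0.019), against a mean that holds the low type IC and type II sums. These Cdh9 values lay below type IA in every mouse and below type IB in mice 1, 2 and 4. Each of the 3 calls was lost without at least 1 of the mice, Pcdh17 without mouse 1, 2 or 4, Pcdh19 without any 1 of them and Cdh9 without mouse 3 or without the block.

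The clustered protocadherins are neuronal identity genes in which single cells choose few isoforms, and their counts are uncertain. Alpha transcripts share their 3′ exons, as do gamma transcripts, so that reads from 3′ ends may be split or dropped between rows. Beta genes are related copies, and how far their reads were confused was not examined. Of the 56 rows, 54 had a UMI in every mouse. The beta genes held 10466 UMIs, from 74 (Pcdhb2) to 1485 (Pcdhb17), the alpha rows 1156, of which 737 were Pcdhac2, and the gamma rows 1277. Pcdhb17 was at 17.9 ± 2.73 CPM in IA, 15.6 ± 1.69 in IB and 18.7 ± 0.81 in IC, with a log2 difference of -0.08 ± 0.10 for IA against IC (adjusted p 0.61). After thinning, a cell held a UMI of 0.62 ± 0.07 clustered members in IA, 0.64 ± 0.05 in IB and 0.66 ± 0.06 in IC, and of 2.48 ± 0.24, 2.26 ± 0.09 and 2.19 ± 0.07 members of any kind. These means do not bear on the choice of isoforms by single cells, which was not tested.

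Of the genes cadherins work with, the 14 tested catenin and actin-link genes gave 7 calls among the type I subtypes (31.4% of all genes were called) and 3 in type II (23.4% of all genes), all 3 of these higher. Pkp4, an armadillo protein related to p120 catenin, stood at 77.9 ± 17.0 CPM there, and type I means were 13.9 to 14.8 (log2 2.35 ± 0.20). Jup, or plakoglobin, was higher in type II (1.75 ± 0.24) and, within type I, lower in IA than in IC (-1.04 ± 0.11). The scaffold gene Magi1 did likewise (1.49 ± 0.20 and -1.31 ± 0.09). Ctnnb1, or beta-catenin, was at 124 to 128 CPM in type I and 104 ± 36.0 in type II (log2 -0.20 ± 0.14, adjusted p 0.34).

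In type II 11.9% of all genes were called as higher and 11.5% as lower, beside which the next counts stand. The WAVE complex, the partner of Pcdh17 and Pcdh10, had 9 tested genes, of which 1 rose in type II (Wasf2, 1.19 ± 0.24) and 2 fell (Nckap1, -0.55 ± 0.10, and Cyfip2, -0.36 ± 0.12). Of 9 tested genes of the wider cadherin superfamily, 7 fell in type II. These were the giant cadherins Dchs1 (-1.66 ± 0.42), Fat3 (-1.39 ± 0.43) and Fat1 (-0.85 ± 0.17), the planar polarity genes Celsr2 and Celsr3, and the calsyntenins Clstn1 and Clstn3. Among 7 genes of cadherin cleavage and maturation, the proprotein convertase gene Furin was higher (1.09 ± 0.21) and Pcsk5 lower (-1.48 ± 0.34) in type II. The median log2 difference in type II was -0.85 for the superfamily list, 0.10 for the catenin list, -0.18 for the 45 members and -0.05 for all genes.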

How the data were processed

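The authors deposited raw UMI counts per gene and cell for each mouse, and the submitters' processing notes name the build mm10, Seurat 1.4 and Cell Ranger 2.0.1. For the filters on cells and the way populations were labelled, the sources used here give nothing. Counts were summed per mouse and population (20 sums) and fitted with edgeR 4.0.16 (filterByExpr, TMM, quasi-likelihood, mouse as a block, Benjamini-Hochberg adjusted p under 0.05 over 13005 genes, two-sided). Levels of about 2 CPM in enough sums passed the filter. Of the tested members 4, Pcdh17 and Pcdhga7 among them, had fewer than 4 type I sums at that level. DESeq2 1.42.0, fits without filter or block, each mouse left out, rebuilt labels, equal cell numbers and thinned cells (4215 UMIs, 671 shallower cells left out) were alternatives. Doublets were not called. The populations of a mouse come from the same animal, and their deviations correlated at 0.33 to 0.57 between type I subtypes and at 0.01 to 0.57 over all pairs. Members in type I were named when called with a difference of 1.5-fold (log2 0.58) or more with no fewer than 20 UMIs where it was higher, and in type II or putative cells up to 8 or 6 in each direction with the same UMI minimum. Members, lists and rules were chosen with earlier results of these data known. The fits were tested on simulated counts. Intervals cover counting error only. The mice are separate animals.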

Additional observations from a re-analysis of the deposited data

Results flagged for a closer look

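In 9 of 75 groups of 4 mice, 1 value lay far from the other 3 (by Dixon's 95% criterion, which chance meets in about 1 of 20 groups). In type II these were Cdh9 at 0 CPM, Cdh22 at 4.54, Cdh23 at 2.56, Pcdhga7 at 3.66, Cdh5 at 4.54 and Pcdh10 at 45.6 CPM. All of these type II groups rest on few UMIs: over the 4 mice Pcdh10 had 25, Cdh9 9, Pcdhga7 2, and Cdh22, Cdh23 and Cdh5 1 each. Among type I, Cdh4 at 27.2 and Pcdh7 at 191 CPM in type IC, and Cdh5 at 3.13 CPM in type IB, stood above the other mice.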

How the results depend on the processing

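Of 266 values of the 24 named results under alternatives, 224 kept direction and side of the threshold, 41 lost the call and 1 turned; 11 named results held in every setting run. Of 72 counts of called members, 58 stayed within 1.5 times. With equal cell numbers (4835 genes and 5 members tested) the counts were 2 among type I, 1 for IA against IB, 3 for IA against IC, 0 for IB against IC (3 at an unadjusted p under 0.05), 3 for type II and 0 for putative (1 unadjusted), by edgeR. Without the replicate block, IA against IB gave 3 and IB against IC 5. Type II gave 7 to 13 members with 1 mouse left out (7 without mouse 3), 18 with rebuilt labels and 6 when thinned (29 members tested). Putative gave 2 to 4 with 1 mouse left out (3 without mouse 1, 2 without mouse 4) and 1 when thinned. The Pcdh10 difference in putative cells turned to -0.18 without cells of 3 or more Fabp7 UMIs. Rebuilt labels were the deposited ones in 80.6% of cells and in 45.3% of putative cells. The causes were not tested, apart from the fewer members tested. Type II rests on 95 cells, and thinning left out 237 of 505 putative cells and 5 of type II.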
